A study of Mus musculus with 119 samples.

Results

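The interferon response and MHC class I genes were followed here as 9 listed genes out of 55291 rows of the count tables: Ifit1, Ifit3, Isg15, Irf7, Bst2, Ifi27, B2m, H2-D1 and H2-K1. The list was fixed by gene symbol, and each gene was read from all 119 libraries. The libraries were poly(A)-enriched RNA-seq libraries of brain punches, 60 from female and 59 from male mice, labelled C57BL/6J and aged 11 weeks (the study's methods name a C57BL/6N substrain and a slightly later age at collection), that had received daily intraperitoneal injections of vehicle or 10 mg/kg of THC, the main psychoactive cannabinoid of cannabis, from postnatal day 28 to day 48 (21 injections) and were tested for behavior from day 63. Punches came from the prefrontal cortex (PFC), the dorsal striatum (DMS, dorsolateral in the labels and dorsomedial in the study's methods), the nucleus accumbens (NAc), the amygdala (Amy) and the ventral tegmental area (VTA), which gave 20 groups of 6 libraries, or 5 in the male VTA vehicle group. The labels name no transgene, and the vehicle was a mixture of ethanol, Tween and saline.

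Interferons are secreted proteins that cells release on sensing foreign or misplaced nucleic acid. Type I interferon binds the IFNAR1 and IFNAR2 receptor, and the kinases JAK1 and TYK2 then activate a transcription factor complex, with IRF9 as a subunit, that binds the interferon-stimulated response element (ISRE) in the promoters of target genes. In the healthy brain this program runs at a low tonic level, mostly in microglia, vessel cells, astrocytes and meningeal cells, while MHC class I is present on vessel and glial cells and at low levels on neurons. Among the 9 genes, Irf7 encodes the transcription factor that amplifies interferon production. Ifit1 and Ifit3 encode RNA-binding proteins that block translation of foreign RNA, Isg15 encodes a ubiquitin-like modifier, Bst2 encodes tetherin, which holds budding viruses at the cell surface, and Ifi27 encodes a small membrane protein. H2-D1 and H2-K1 encode classical MHC class I heavy chains, which present peptides to CD8 T cells, and B2m encodes beta-2-microglobulin, their invariant light chain.

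Ifit1 (chr19:34640871-34650009) and Ifit3 (chr19:34583531-34588731) lie in the same gene cluster on the plus strand in the GENCODE annotation of mm10, and H2-K1 (chr17:33996017-34000347, minus strand) and H2-D1 (chr17:35262730-35267499, plus strand) lie in the major histocompatibility complex. Isg15 is at chr4:156199424-156200818 on the minus strand, Irf7 at chr7:141262706-141266481 on the minus strand, Bst2 at chr8:71534255-71537456 on the minus strand, Ifi27 at chr12:103434211-103440239 on the plus strand, and B2m at chr2:122147686-122153083 on the plus strand. Counting with RSEM shares a read among the transcripts it matches, so that counts of near-identical copies (Ifit3 with Ifit3b, H2-D1 with H2-K1 and the other class I genes) carry more uncertainty than those of the other members. The promoters below are shown because all but that of H2-K1 hold an exact match to a core of the ISRE. The H2-K1 line is printed beside them and holds a stretch close to the core, named further below. Variant forms of the element were not searched for. Each line is 150 bases, 5′ to 3′ on the gene's strand, from 170 to 21 bases before the RefSeq start site (GRCm38.p6), with matches to the ISRE core GAAANNGAAA (on either strand) in capitals.
Ifit1, chr19:34640719-34640868: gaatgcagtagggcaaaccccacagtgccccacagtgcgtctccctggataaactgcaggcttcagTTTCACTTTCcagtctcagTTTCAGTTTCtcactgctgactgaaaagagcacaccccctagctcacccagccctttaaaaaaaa
Ifit3, chr19:34583359-34583508: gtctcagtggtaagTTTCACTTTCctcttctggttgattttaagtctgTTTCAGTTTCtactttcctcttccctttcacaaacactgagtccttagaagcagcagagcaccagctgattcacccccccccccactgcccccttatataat
Isg15, chr4:156200839-156200988: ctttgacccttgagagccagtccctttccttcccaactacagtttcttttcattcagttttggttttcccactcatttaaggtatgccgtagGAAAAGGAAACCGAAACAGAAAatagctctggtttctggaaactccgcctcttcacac
Bst2, chr8:71537493-71537642: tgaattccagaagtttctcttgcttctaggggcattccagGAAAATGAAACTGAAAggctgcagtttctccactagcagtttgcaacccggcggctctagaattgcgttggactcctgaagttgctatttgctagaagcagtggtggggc
B2m, chr2:122147517-122147666: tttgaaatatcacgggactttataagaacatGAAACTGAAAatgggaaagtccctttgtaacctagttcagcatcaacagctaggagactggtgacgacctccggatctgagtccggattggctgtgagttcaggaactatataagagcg
H2-K1, chr17:34000368-34000517: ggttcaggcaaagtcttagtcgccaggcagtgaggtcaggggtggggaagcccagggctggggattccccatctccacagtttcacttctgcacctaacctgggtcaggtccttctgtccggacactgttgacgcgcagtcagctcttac

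The ISRE core was searched in the 250 bases before the start site on both strands, and 8 of the 9 members had a promoter in the RefSeq table (not Ifi27). It was found in 5 of those 8 (Ifit1, Ifit3, Isg15, Bst2 and B2m), against 3.46% of all 27025 promoters in the table and 18 of 39 other interferon-stimulated genes (46.2%). Ifit1 and Ifit3 each held the same pair of matches on the opposite strand, TTTCACTTTC and TTTCAGTTTC, at 104 and 85 bases before the start in Ifit1 and at 156 and 122 bases in Ifit3. Isg15 held 3 overlapping matches, and Bst2 held 2 that overlap each other. The windows of Irf7, H2-D1 and H2-K1 held no exact match, which says only that these letters are not there. Those of H2-D1 and H2-K1 did hold tttcacttc, a form of the core on the opposite strand short of a T. Whether it serves as a response element was not tested.

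Library totals ran from 3090998 to 77042133 expected counts with a median of 22092612, and those of the PFC and DMS from 17826631 to 25470245. Labels and marker genes went together for the regions: the dopamine transporter gene Slc6a3 was at 1181 ± 334.8 CPM (counts scaled to a normalized library total; SD, n = 23) in the VTA and at most at 1.78 elsewhere, and the striatal gene Drd1 was at 318.1 ± 29.4 (n = 24) in the DMS and 178 ± 26.6 (n = 24) in the NAc. In 2 Amy THC libraries, FTL_344 (labelled female) and FTL_356 (labelled male), sex-linked transcripts went against the label, and the THC, sex and correlation results of the Amy were also computed without them. Levels below are CPM on a scale set over all 119 libraries. The PFC and DMS were deposited in a separate count table from the NAc, Amy and VTA. Differences in level between these 2 sets of regions therefore cannot be told apart from other differences between the 2 tables. Libraries of 1 region came from separate mice. Those of different regions share mice, the labels do not tell which, and the tests between regions therefore treat them as independent. In bulk tissue, fewer cells of a type and less RNA per cell cannot be told apart.

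Per kilobase of exon, B2m was the highest member in every region, at a mean of 32 (NAc) to 61.3 CPM per kb (VTA), and Irf7 the lowest, at 0.27 (Amy) to 0.734 CPM per kb (VTA). H2-D1 lay at 12 to 12.4 CPM per kb in the 4 forebrain regions and at 30.4 in the VTA, above H2-K1 at 4.76 (PFC) to 13.5 CPM per kb (VTA). Ifi27 ranged from 9.82 (Amy) to 16.8 (VTA) CPM per kb, Ifit3 from 2.99 (Amy) to 7.94 (VTA), and Bst2 from 1.19 (NAc) to 2.92 (VTA). Isg15 and Ifit1 were low throughout, with 1.9 and 1.33 CPM per kb in the VTA as their highest means. Low members were therefore read from few fragments. In the male Amy, Isg15 did not pass the filter on low counts and was left out of that test, while the other 8 members passed in all 10 comparisons.

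The VTA had the highest mean level of all 9 members. H2-D1 in vehicle mice had a lowest, median and highest level of 67.6, 74.1 and 97.3 CPM in the 11 VTA libraries, against 27.4, 32.4 and 43 in the 12 NAc libraries and 26.3, 33 and 40.6 in the 12 Amy libraries. H2-K1 had 26.5, 41.8 and 53.7 CPM in the VTA, against 13.9, 16.7 and 20.7 in the NAc and 15.2, 18 and 23.5 in the Amy. For both heavy chain genes, all 23 VTA libraries of either treatment lay above all 96 libraries of the other regions. Of those regions, only the NAc and the Amy shared a count table with the VTA. For the other members the ranges overlapped: the number of VTA libraries above every forebrain library was 4 of 23 for Isg15, 9 for Ifit1 and Ifi27, 10 for Ifit3, 12 for Bst2, 13 for B2m and 14 for Irf7.

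Tested in vehicle libraries with sex as a covariate, all 9 members were higher in the VTA than in the NAc and than in the Amy by edgeR's quasi-likelihood test (a false discovery rate, FDR, below 0.05 together with a log2 fold change of 0.4 or more in either direction). Over all genes tested, 27.7% passed as higher and 24.3% as lower in the VTA against the NAc, and 22.9% and 20.4% against the Amy. The members' median log2 fold change was 1.24 against the NAc and 1.29 against the Amy, beside medians of 0.037 and 0.00406 over all 17307 genes. H2-D1 was 2.37-fold higher than in the NAc (log2 fold change 1.25 ± 0.076 SE, FDR 2.59e-17) and 2.45-fold higher than in the Amy (1.29 ± 0.076, FDR 1.29e-17). Among the interferon-induced members, Ifit1 differed by 1.501 ± 0.21 and 1.52 ± 0.21 on the log2 scale, Irf7 by 1.47 ± 0.18 and 1.43 ± 0.17, and Ifit3 by 0.97 ± 0.10 and 1.39 ± 0.11 (VTA minus NAc and VTA minus Amy). The smallest differences were those of Ifi27 (0.68 ± 0.12 and 0.79 ± 0.12) and B2m (0.89 ± 0.087 and 0.69 ± 0.086).

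**Figure D1:**
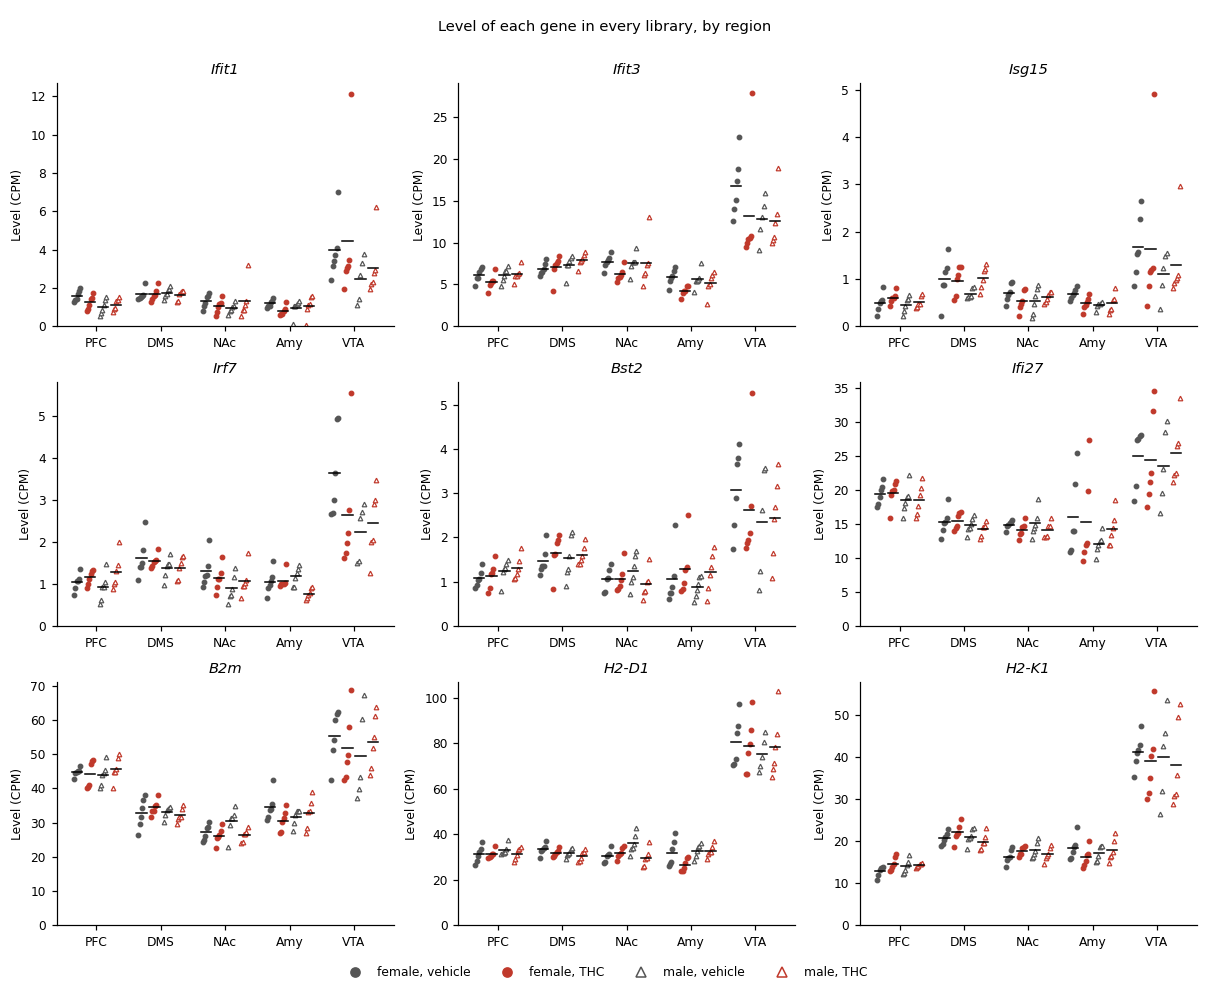
Level of the 9 genes (CPM, linear axes from 0) in each of the 119 libraries, by region, sex (circles female, triangles male) and treatment (grey vehicle, red THC), with the mean of each group as a bar. The mean over the VTA libraries is the highest of the regions for every gene, and for H2-D1 and H2-K1 all 23 lie above all 96 others.

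Between the NAc and the Amy, 1 member passed. Ifit3 was at 5.69, 7.69 and 9.35 CPM (lowest, median, highest) in the NAc and at 4.08, 5.59 and 7.59 in the Amy, and it was lower in the Amy by 0.42 on the log2 scale (log2 fold change −0.42 ± 0.10, FDR 0.000826). Among the other 8, Bst2 had the widest 95% confidence interval of the log2 fold change, from −0.68 to 0.27, and H2-D1 one of the narrowest, from −0.19 to 0.11. B2m had a log2 fold change of 0.19 (FDR 0.0559). Over all genes, 12.5% passed as higher and 11.6% as lower in the Amy.

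The DMS and the PFC, which share the other table, differed in both directions. Isg15 was 1.74-fold higher (log2 fold change 0.80 ± 0.23, FDR 0.00235), H2-K1 1.56-fold (0.64 ± 0.055, FDR 1.38e-11), Irf7 1.53-fold (0.61 ± 0.16, FDR 0.000734) and Ifit1 1.33-fold (0.41 ± 0.15, FDR 0.0172) in the DMS. B2m went the other way and was at 0.743 times its PFC level (log2 fold change −0.43 ± 0.045, FDR 8.68e-10). The light chain and the heavy chains had different orders: B2m was at 44.4 ± 2.42 CPM (SD, n = 12) in the PFC and 33 ± 3.21 in the DMS, H2-K1 at 13.5 ± 1.55 and 20.9 ± 1.58, and H2-D1 at 32.2 ± 3.04 and 32.6 ± 2.16, with a 95% confidence interval of −0.08 to 0.12 for the log2 difference of H2-D1. Ifit3, Bst2 and Ifi27 had an FDR below 0.05 without reaching the fold threshold. The counts of 4 higher and 1 lower stood beside 25.7% higher and 23.4% lower over all genes. The call of Ifit1 was lost with DESeq2 (log2 fold change 0.39) and with its size factors in edgeR (0.40, just under the fold threshold).

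**Figure D2:**
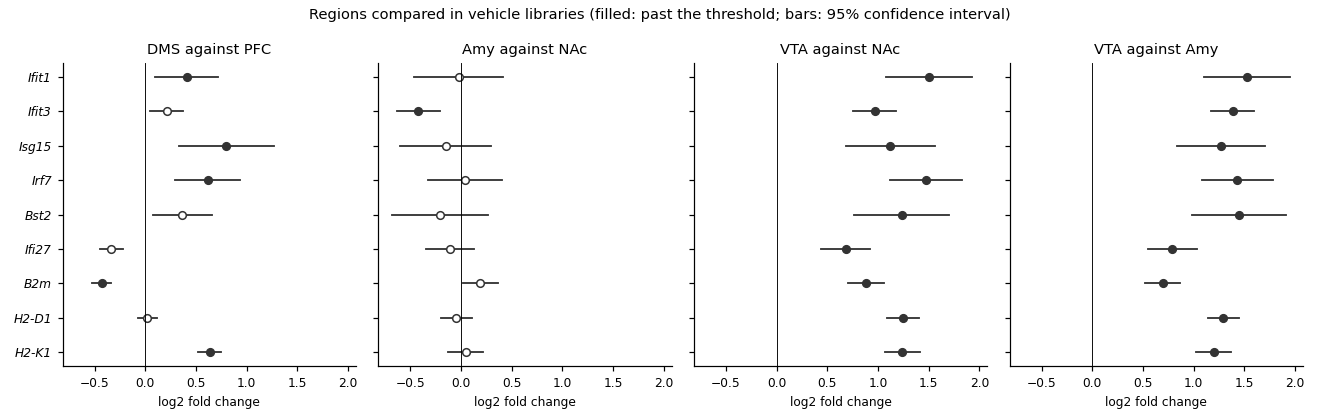
Log2 fold change of the 9 genes between regions in vehicle libraries (points, with 95% confidence intervals) for the 4 pairs that share a count table. All 9 points are filled, that is past the threshold, in both VTA panels, 5 are filled for DMS against PFC and only Ifit3 for Amy against NAc.

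Most further interferon-stimulated and class I genes were also higher in the VTA. Ligand, receptor and signaling genes of the pathway passed as higher about as often as all genes did. The share over all genes was 27.7% higher and 24.3% lower against the NAc, and 22.9% and 20.4% against the Amy. Of 51 further interferon-stimulated genes, 43 were tested in the table of the NAc, Amy and VTA, and 37 passed as higher and 0 as lower in the VTA than in the NAc (median log2 fold change 0.89), with 1 having an unadjusted p below 0.05 for lower. Of 22 further class I and antigen processing genes, all tested, 17 passed as higher and 0 as lower (median 0.76), and none had an unadjusted p below 0.05 for lower. Of 23 interferon ligand, receptor and signaling genes, 21 were tested, with 6 higher and 2 lower (median 0.28). MHC class II genes passed as higher in 5 of 6 tested and lower in 1 (median 2.48). Against the Amy, the counts were 38 of 43 higher and 0 lower for interferon-stimulated genes (0 lower also at an unadjusted p below 0.05), 13 of 22 higher and 1 lower for class I and antigen processing genes, and 5 higher and 3 lower for ligand, receptor and signaling genes.

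Markers of several other cell types also differed between the VTA and the NAc, beside 27.7% of all genes higher and 24.3% lower. The summed level of 7 meningeal and fibroblast markers ran from 42.7 to 384 CPM in the 11 VTA vehicle libraries and from 37.2 to 78.8 in the 12 of the NAc, and all 7 passed as higher. Blood markers (5 of 5 higher) ran from 134 to 2974 CPM against 83.3 to 282.3, endothelial markers (11 of 12 higher) from 300 to 386 against 192 to 243, and oligodendrocyte markers (7 of 7 higher) from 10160 to 19020 against 3475 to 6447. Microglial markers (6 of 16 higher, 1 lower) ran from 410 to 761 against 399 to 563, and astrocyte markers (5 of 7 higher, 2 lower) from 2329 to 3650 against 2409 to 3055. Choroid plexus markers passed as higher in 4 of 9 and lower in 2, with sums of 14.1 to 28.7 against 34.1 to 50.3. Lymphocyte markers were under 1 CPM in every vehicle library, and none of the 6 passed the filter.

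Across the 23 VTA libraries, 8 had meningeal and blood marker sums no higher than the highest of the 48 forebrain vehicle libraries (91.4 and 601 CPM). Both limits came from Amy library FTL_335, while the medians of the forebrain regions were 22.3 to 47.3 and 106 to 168 CPM. The 8 were not matched on oligodendrocyte markers, at 13620 to 16540 CPM against 1759 to 8334 in forebrain vehicle libraries. Their endothelial sums, at 299.7 to 335.8 CPM, lay above those of NAc (192.4 to 243.3), Amy (177 to 232.1) and PFC (176.5 to 210) vehicle libraries. They overlapped with those of the DMS (253.7 to 332.4). In those 8, H2-D1 was at 65.4 to 75.9 CPM and H2-K1 at 26.5 to 35.1, above all 48 forebrain libraries (up to 43 and 23.5). Ifit3 was at 9.16 to 13 CPM, with 7 of the 8 above the highest forebrain vehicle level of 9.35. Ifit1 was above in 4 of the 8, Irf7, Bst2 and B2m in 2 each, and Isg15 and Ifi27 in 0. Of these 8 libraries, 6 were from THC mice, and against all 96 forebrain libraries of either treatment the counts were 8 for H2-D1 and H2-K1, 2 for Irf7, 1 each for Ifit1, Bst2 and B2m, and 0 for Ifit3, Isg15 and Ifi27. The part of the other marker lists in the regional difference was not tested.

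To ask whether adolescent THC changed these genes in the adult brain, THC was compared with vehicle in each region and sex. By edgeR's quasi-likelihood test, 0 of the 9 members passed in any of the 10 comparisons (8 tested in the male Amy). Over all genes, the same rule passed 1.57% in the female Amy, 0.0127% in the female DMS and 0% in each of the other 8. The number of members with an unadjusted p below 0.05 was 5 in the female Amy (21.9% of all genes), 2 in the male NAc (16.7%), 1 each in the female PFC (5.84%), male DMS (1.93%), female NAc (4.61%) and male Amy (1.84%), and 0 in the male PFC (4.07%), female DMS (8.9%), female VTA (9.02%) and male VTA (5.92%). DESeq2 passed Ifit1 and Ifit3 in the female Amy, where it passed 3.39% of the genes it gave an adjusted p, and no member elsewhere. It gave no adjusted p for any member in the male NAc, for 4 in the female DMS and for 2 in the female VTA.

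The confidence intervals show which changes these data allow. For H2-D1, the 95% interval of the log2 fold change reached no farther than −0.52 (female Amy) and 0.30 (male VTA) over the 10 comparisons, and for B2m no farther than −0.38 and 0.45. For the low members Ifit1 and Isg15, intervals in the female VTA ran from −0.74 to 1.17 and from −0.97 to 1.13. Changes within these ranges are not excluded there.

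**Figure D3:**
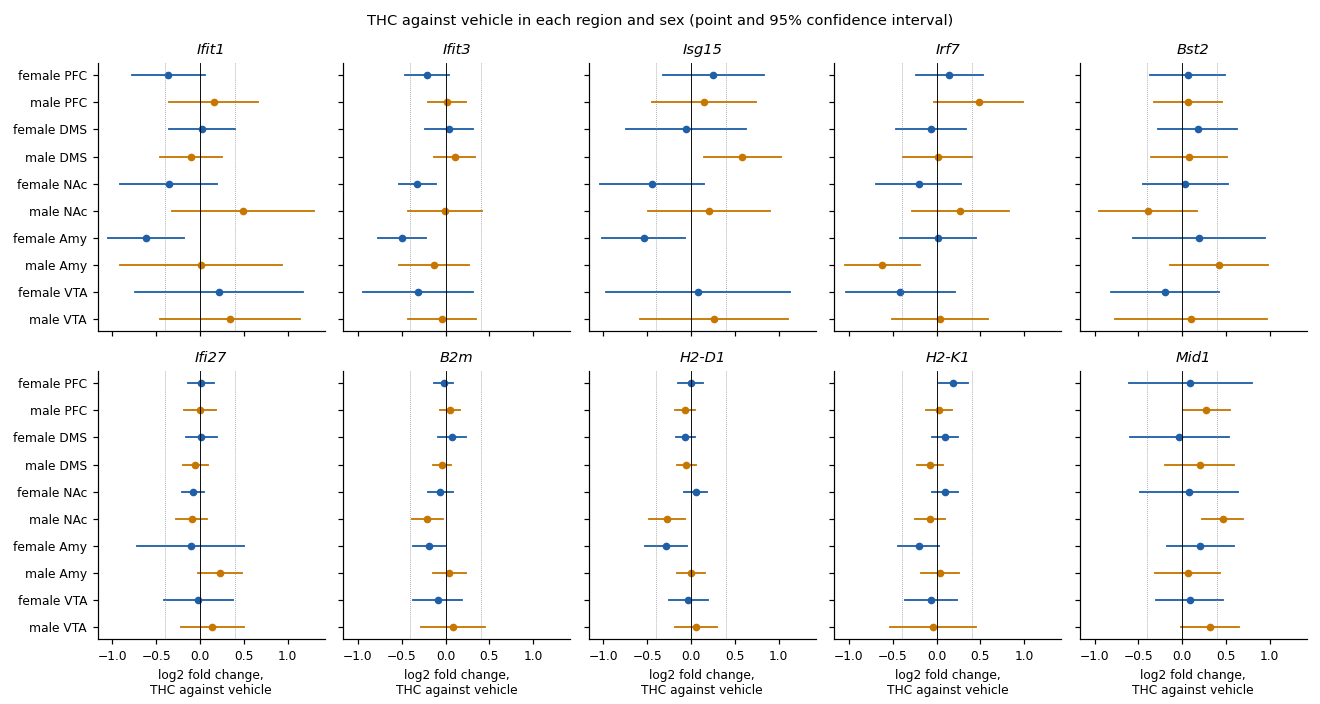
Log2 fold change of THC against vehicle (points, with 95% confidence intervals) for the 9 genes and Mid1 in the 10 comparisons, females in blue and males in orange, with dotted lines at −0.4 and 0.4. None passed the FDR threshold, and Isg15 in the male Amy was not tested.

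In the male NAc, the 9 members had a median log2 fold change of −0.076 (all genes, −0.000547), with 3 above and 6 below 0. Among the class I genes, H2-D1 and B2m had an unadjusted p below 0.05 and H2-K1 did not, and none passed. H2-D1 had a lowest, median and highest level of 30.7, 34.9 and 43 CPM in the 6 vehicle libraries and 25.6, 29.4 and 36.8 in the 6 THC libraries. Its log2 fold change was −0.27 ± 0.094 (unadjusted p = 0.0109, FDR 0.216 by edgeR), and 4 of 6 THC libraries lay below all vehicle libraries. B2m was at 22.9, 31.5 and 34.9 CPM with vehicle and at 24.2, 26.7 and 28.7 with THC, a difference of −0.21 ± 0.082 (unadjusted p = 0.022, FDR 0.235 by edgeR), with overlapping groups. H2-K1 differed by −0.08 ± 0.079 (FDR 0.649).

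The interferon-induced members did not move together in the male NAc. Ifit3, the most abundant of them per kilobase after Ifi27, was at 5.69, 7.69 and 9.35 CPM with vehicle and at 4.82, 6.84 and 13.1 with THC, and its log2 fold change was −0.01 ± 0.20. Ifit1 was at 0.571, 0.951 and 1.33 CPM with vehicle and at 0.519, 0.99 and 3.21 with THC (log2 fold change 0.50 ± 0.38, FDR 0.524). The highest value of both came from library FTL_327, and without it the log2 fold change was −0.00464 for Ifit1 and −0.24 for Ifit3. Isg15 (0.20 ± 0.33), Irf7 (0.27 ± 0.26), Bst2 (−0.39 ± 0.27) and Ifi27 (−0.10 ± 0.084) had intervals that included 0.

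Mid1, annotated on the X chromosome, is a gene for a microtubule-associated ubiquitin ligase. It was read beside the 9 members because pathway annotation files it under interferon signaling. The study, with DESeq2 at the same thresholds, tied its changed genes of the male NAc to interferon signaling. With edgeR, a different tool, 0% of all genes passed in the male NAc here. Mid1 was at 7.77, 9.46 and 10.1 CPM with vehicle and at 8.93, 13.4 and 14.5 with THC in the male NAc. The log2 fold change was 0.46 ± 0.11 (unadjusted p = 0.000607, FDR 0.21 by edgeR), with 5 of 6 THC libraries above all vehicle libraries, and it lay between 0.42 and 0.55 when each library was left out in turn. DESeq2, the tool of the study, gave 0.46 (unadjusted p = 0.00012) and no adjusted p. In the other male comparisons Mid1 was at 0.28 (PFC), 0.20 (DMS), 0.06 (Amy) and 0.32 (VTA) by edgeR, and in females at −0.03 to 0.21. It passed in none of them. Of 38 further interferon-stimulated genes tested in the male NAc, 0 passed, with 1 higher and 3 lower at an unadjusted p below 0.05 (16.7% of all genes) and a median log2 fold change of −0.076. The lowest p of the interferon and MHC lists belonged to Ifih1, the gene of the RNA sensor MDA5 (2.55 ± 0.386 CPM with vehicle and 1.70 ± 0.268 with THC, SD, n = 6 each, log2 fold change −0.56 ± 0.15, FDR 0.21). H2-DMa, a class II peptide-loading gene (0.29 ± 0.092, FDR 0.21), and Canx, the gene of the chaperone calnexin (−0.11 ± 0.040, FDR 0.223), came next. Summed microglial, endothelial and meningeal markers overlapped between the groups, at 445 to 563 and 446 to 533, 208 to 243 and 205 to 232, and 39 to 78.8 and 39.8 to 63.7 CPM for vehicle and THC.

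In the female Amy, the comparison with most changed genes of the series, no member passed with edgeR. Ifit3 was at 4.37, 5.92 and 7.05 CPM with vehicle and at 3.20, 4.23 and 4.78 with THC. The log2 fold change was −0.50 ± 0.13 (unadjusted p = 0.00181, FDR 0.057 by edgeR and 0.00819 by DESeq2), and 4 of 6 THC libraries lay below all vehicle libraries. Ifit1 was at 0.967, 1.18 and 1.45 CPM with vehicle and at 0.61, 0.719 and 1.25 with THC, a log2 fold change of −0.62 ± 0.20 (unadjusted p = 0.00814, FDR 0.106 by edgeR and 0.0481 by DESeq2), with 5 of 6 THC libraries below all vehicle libraries. Isg15 was at 0.531, 0.686 and 0.841 CPM with vehicle and at 0.269, 0.49 and 0.676 with THC (−0.54 ± 0.22, FDR 0.178).

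Irf7, Bst2 and Ifi27 had log2 fold changes of 0.02 ± 0.20, 0.19 ± 0.35 and −0.11 ± 0.29 in the female Amy, with intervals that included 0. Among class I members, H2-D1 was at 26.3, 30.7 and 40.6 CPM with vehicle and at 23.7, 26.2 and 30.1 with THC (−0.29 ± 0.11, FDR 0.157), B2m differed by −0.19 ± 0.087 (FDR 0.216) and H2-K1 by −0.20 ± 0.11 (FDR 0.287). The members' median log2 fold change was −0.20, beside −0.00567 over all 17003 genes. Ifit3 had an FDR below 0.05 without vehicle library FTL_337 (log2 fold change −0.58, FDR 0.0337), and Ifit1 without THC library FTL_343 (−0.77, FDR 0.0377).

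Among the other listed genes, 2 passed in the female Amy, both interferon-stimulated. Ifit3b, the near-identical neighbor of Ifit3, fell from 4.65 ± 0.683 CPM with vehicle to 3.12 ± 0.374 with THC (SD, n = 6 each, log2 fold change −0.58 ± 0.12, FDR 0.0276). Dtx3l, the gene of the PARP9 partner ligase deltex 3L, rose from 2.998 ± 0.398 to 4.11 ± 0.219 CPM (0.44 ± 0.11, FDR 0.0441). Each call depended on the libraries and the fit. Ifit3b kept an FDR below 0.05 in 8 of 12 fits that each left out 1 library (FDR 0.0207 to 0.0734) and Dtx3l in 2 of 12 (FDR 0.0408 to 0.118), and both were lost when all 4 Amy groups were fitted together. Without library FTL_344, Ifit3b was at −0.607 (FDR 0.0482) and Dtx3l lost its call (0.434, FDR 0.0885). Irf3, a factor that induces type I interferon genes, was at 15.4 ± 2.12 and 11.9 ± 1.24 CPM (−0.39 ± 0.096, FDR 0.0494), short of the fold threshold. Of 39 further interferon-stimulated genes tested, 2 were higher and 4 lower at an unadjusted p below 0.05, and of 22 class I and antigen processing genes 0 were higher and 5 lower, with 0 passing, beside 21.9% of all genes at such a p. Microglial markers had 0 of 16 higher and 5 lower at an unadjusted p below 0.05 in the same comparison, with a median log2 fold change of −0.13 and none passing, and their part in the result was not tested.

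Choroid plexus markers stood apart in some Amy libraries. Their sum was 467 CPM in vehicle library FTL_337, 912 in vehicle library FTL_335, 1170 in vehicle library FTL_338, 3669 in THC library FTL_343, 2305 in THC library FTL_344 and 489 in male THC library FTL_356, against 17.7 to 23.3 in the other 7 female Amy libraries. Ifi27 was at 20.9, 25.4, 27.3 and 19.8 CPM in libraries FTL_335, FTL_338, FTL_343 and FTL_344, against 9.5 to 14 in the other 8 female Amy libraries. Bst2 was at 2.27 CPM in library FTL_338 and 2.51 in library FTL_343, and at 0.606 to 1.32 in the other 10. The part of choroid plexus tissue in the levels of Ifi27 and Bst2 was not tested. Without library FTL_344, whose sex-linked transcripts go against its label, the log2 fold changes of Ifit1 and Ifit3 were −0.55 and −0.43 by edgeR (FDR 0.207 and 0.11), and DESeq2 passed only Ifit3 (−0.43, FDR 0.0275), beside 2.67% of the genes it gave an adjusted p. Isg15 was then at −0.414, H2-D1 at −0.254, H2-K1 at −0.187 and B2m at −0.155 by edgeR, none past the threshold.

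In the female VTA, 1 THC library stood apart. Ifit3 was at 12.6, 16.2 and 22.6 CPM with vehicle and at 9.44, 10.4 and 27.8 with THC. Library FTL_365 held the highest THC value, and the other 5, at 9.44 to 10.8, lay below all 6 vehicle libraries. The log2 fold change was −0.32 ± 0.29 (FDR 0.745) with all libraries and −0.71 without library FTL_365 (FDR 0.0499 by edgeR). In the same way, that of Irf7 went from −0.41 ± 0.29 to −0.81 (FDR 0.15), that of Ifit1 from 0.22 ± 0.44 to −0.45, and that of Isg15 from 0.08 ± 0.49 to −0.75. Meningeal sums ran from 40.7 to 208 CPM in the 5 remaining female THC libraries and from 150 to 384 with vehicle, and blood sums from 111 to 1105 and from 918 to 1634. Microglial sums ran from 397 to 467 CPM in those 5 and from 491 to 632 with vehicle, without overlap, and the part of these cells in the levels of Ifit3 and Irf7 was not tested. Tap2, a peptide transporter gene (−0.31 ± 0.11, FDR 0.512), Ifit3b (−0.49 ± 0.20, FDR 0.516) and Lgals3bp (−0.22 ± 0.091, FDR 0.521) had the lowest p of the interferon and MHC lists there, and 0 of 43 further interferon-stimulated genes passed, with 0 higher and 2 lower at an unadjusted p below 0.05 (9.02% of all genes).

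Library FTL_365 carried the highest level of 7 of the 9 members among all 119 libraries: Ifit1 at 12.1 CPM (504 counts), Ifit3 at 27.8, Isg15 at 4.91, Irf7 at 5.56, Bst2 at 5.27, B2m at 68.8 and H2-K1 at 55.7. This was 5.05 times the mean of the other 5 libraries of its group for Isg15, 4.19 times for Ifit1 and 2.72 times for Ifit3, but 1.31 times for H2-D1. Its meningeal sum was 484 CPM, the highest of the series, its blood sum 3828 CPM and its endothelial sum 412 CPM. Male THC library FTL_376 ranked 2 of 119 for Isg15 and 3 of 119 for Ifit1 and Ifit3, with Isg15 at 2.97, Ifit1 at 6.22 and Ifit3 at 18.9 CPM, a blood sum of 4620 and a meningeal sum of 347.1 CPM. Accumbens library FTL_327, by contrast, had Ifit1 at 3.21 and Ifit3 at 13.1 CPM with a blood sum of 182 CPM and a meningeal sum of 63.7 CPM, ranks 6 and 3 of 24 in the NAc.

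In male VTA libraries, the members' median log2 fold change with THC was 0.087. Ifit3 was at 9.16, 11.6, 13, 14.3 and 15.9 CPM in the 5 vehicle libraries and at 9.95, 11.5 and 18.9 (lowest, median, highest) in the 6 THC libraries, a difference of −0.04 ± 0.18. H2-D1 and H2-K1 differed by 0.06 ± 0.11 and −0.04 ± 0.22. Groups overlapped for all 9 members.

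Single members had an unadjusted p below 0.05 in 4 further comparisons, none past the FDR threshold. In the female NAc, Ifit3 was at 6.38, 7.77 and 8.83 CPM with vehicle and at 5.29, 6.04 and 7.62 with THC (log2 fold change −0.32 ± 0.10, FDR 0.991). In the male Amy, Irf7 was at 0.918, 1.21 and 1.47 CPM with vehicle and at 0.614, 0.758 and 0.92 with THC (−0.62 ± 0.20, FDR 1; −0.573 without library FTL_356), with 5 of 6 THC libraries below all vehicle libraries. In the male DMS, Isg15 was at 0.599, 0.633 and 0.8292 CPM with vehicle and at 0.68, 1.08 and 1.305 with THC (0.58 ± 0.21, FDR 1). In the female PFC, H2-K1 was at 10.9, 13.3 and 13.8 CPM with vehicle and at 12.9, 14.3 and 17.1 with THC (0.19 ± 0.080, FDR 0.836).

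Ifit1 was all but absent from 2 male Amy libraries. Vehicle library FTL_347 and THC library FTL_356 held 1 count each, or 0.102 and 0.0742 CPM, while the other 10 male Amy libraries lay between 0.901 and 1.57 CPM. Neighbors in the Ifit cluster were present there: Ifit2 was at 90 and 127 counts, Ifit3 at 40 and 36, and Ifit3b at 44 and 27 (4.49 and 2.00 CPM, against 3.36 to 5.17 in the other THC libraries). In library FTL_356, Ifit3 (2.67 CPM) was also the lowest of the 119 libraries. The cause was not tested.

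Neither sex nor its interaction with THC reached the threshold for any member. With sex as a covariate, 0 of the 9 members passed for THC in any region (0% of all genes in all 5). The lowest unadjusted p values were those of Ifit3 in the Amy (−0.33 ± 0.12, unadjusted p = 0.012, FDR 0.677 by edgeR) and B2m in the NAc (−0.13 ± 0.056, unadjusted p = 0.0245, FDR 0.442 by edgeR), the only members below 0.05. For the interaction, 0 of the 9 passed (0.0059% of all genes in the Amy, 0% elsewhere). H2-D1 in the NAc (−0.33 ± 0.12, male minus female effect, unadjusted p = 0.0102, FDR 0.385 by edgeR) and Irf7 in the Amy (−0.64 ± 0.28, unadjusted p = 0.0298, FDR 0.284 by edgeR) were the members below 0.05. Without libraries FTL_344 and FTL_356, Ifit3 over both sexes of the Amy was at −0.227 and the interaction of Irf7 at −0.613 on the log2 scale (FDR 0.99 and 0.291). Between the sexes, 0 of 9 passed, beside 0.24% of all genes (PFC), 2.64% (DMS), 0.243% (NAc), 0.012% (Amy) and 0.109% (VTA). Ifit1 in the PFC (−0.39, FDR 0.231) and H2-D1 in the Amy (0.17, FDR 0.794) had an unadjusted p below 0.05. DESeq2 passed 0 members in these tests too. In the VTA, the fold change of males against females was below 1 for all 9 members (median log2 fold change −0.24), and Ifit1 was at 4.20 ± 2.79 CPM (SD, n = 12) in females and 2.79 ± 1.37 (n = 11) in males (−0.66 ± 0.30, unadjusted p = 0.0369, FDR 0.663 by edgeR).

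Within a region, the members varied together from mouse to mouse to different degrees. Correlations were taken over mice after subtracting each group's mean, for 36 pairs in each of 5 regions, with p from 100000 permutations within groups and adjusted by Benjamini-Hochberg over the 180 relations. A pair was counted when both Pearson's r and Spearman's rho had an adjusted p below 0.05. The PFC held 0 such pairs (median r 0.07, n = 24 mice) and the DMS and the NAc 1 each (median r 0.16 and 0.32). The Amy held 6 (0.36) and the VTA 28 (0.67, n = 23), where r was above 0 for all 36 pairs. Without libraries FTL_344 and FTL_356 the Amy held 5 (median r 0.34, n = 22). Leaving out VTA libraries FTL_365 and FTL_376 left 3 pairs in the VTA, with a median r of 0.55 and r still above 0 for all 36. The count in the VTA therefore rests in large part on these 2 libraries.

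The heavy chains H2-D1 and H2-K1 had r = 0.82 and rho = 0.82 in the VTA (permutation p = 1e-05 for both, the smallest possible, adjusted p = 0.0018 and 0.0009), and r = 0.74 without the 2 mice farthest from the median of H2-D1. They remained past the threshold without libraries FTL_365 and FTL_376, as did the pairs of Ifi27 with H2-D1 and with H2-K1. Ifit1 and Isg15 had r = 0.88 and rho = 0.76 in the VTA (permutation p = 8e-05 and 0.00027, adjusted p = 0.00283 and 0.00607) and r = 0.77 without the 2 farthest mice. Ifit1 and Ifit3 had r = 0.82 and rho = 0.62 (permutation p = 0.00083 and 0.00381, adjusted p = 0.00996 and 0.0254) and r = 0.60 without the 2 farthest. Outside the VTA, Irf7 and H2-D1 in the NAc (r = 0.79, rho = 0.74, permutation p = 0.0001 and 0.00023, adjusted p = 0.00283 and 0.00607, r = 0.69 without the 2 farthest mice) had the largest r among pairs past the threshold.

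Marker sums varied along with the members in the VTA. Over 63 relations of the 9 members with 7 marker lists, all 9 passed the same rule for meningeal (r 0.52 to 0.92), endothelial (0.59 to 0.83) and astrocyte markers (0.62 to 0.91). For blood 8 passed (0.47 to 0.89), for choroid plexus 5, for microglia 4 (0.32 to 0.81) and for oligodendrocytes 0 (−0.18 to 0.41). Without the 2 mice farthest from the median of each marker sum, r was 0.56 to 0.85 for microglia and 0.24 to 0.84 for blood. It was then 0.33 to 0.89 for meningeal, 0.42 to 0.75 for endothelial and 0.47 to 0.87 for astrocyte markers. The counts therefore do not order the lists by closeness to the members. H2-K1 and the meningeal sum had r = 0.92 and rho = 0.92 (permutation p = 1e-05 for both, adjusted p = 0.000157), and r = 0.89 without the 2 farthest mice. Irf7 and the meningeal sum had r = 0.52 and rho = 0.50 (permutation p = 0.0248 and 0.0285, adjusted p = 0.0355 and 0.0367), and r = 0.33 without the 2 farthest. These relations were not computed again without libraries FTL_365 and FTL_376, on which the count of member pairs in the VTA largely rested. What share of the members' variation these cell types carry was not tested.

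**Figure D4:**
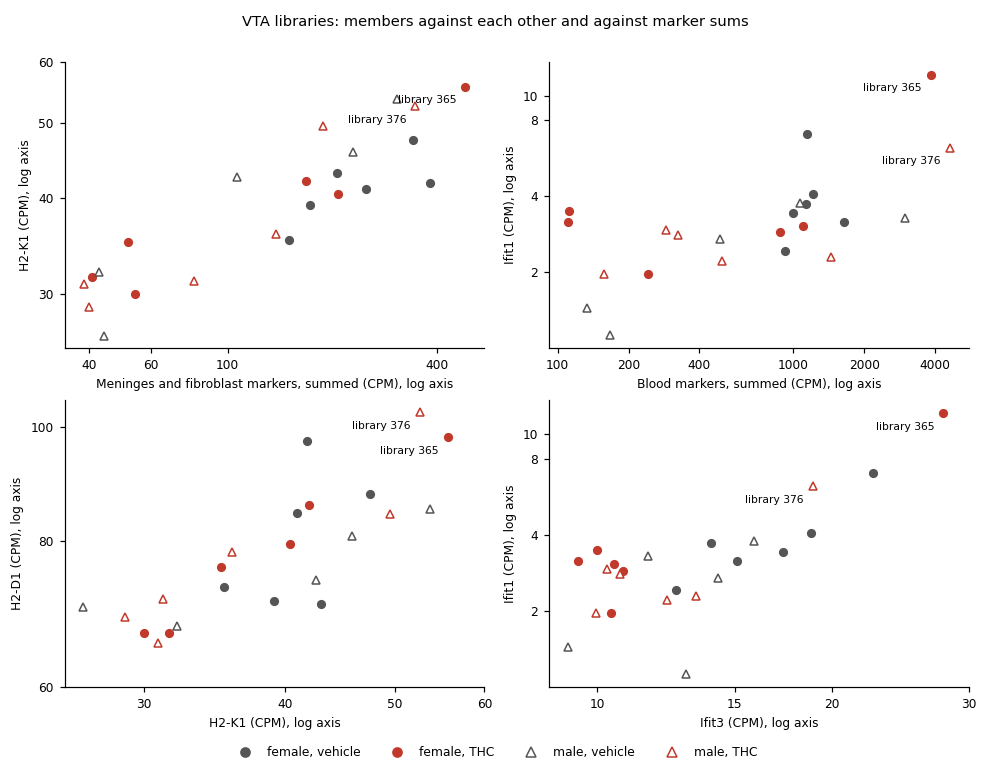
The 23 VTA libraries (circles female, triangles male, grey vehicle, red THC) on log axes in CPM: H2-K1 against summed meningeal markers, Ifit1 against summed blood markers, H2-D1 against H2-K1, and Ifit1 against Ifit3. THC libraries FTL_365 and FTL_376 lie at or near the upper end of each panel.

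As a description, genes were compared over all 119 libraries with the group means removed (libraries of the same mouse are not independent). Libraries FTL_365 and FTL_376 were included, and these values were not computed again without them. The gene most like Ifit1 among 18932 was Ifit3 (r = 0.67) and the reverse. Within regions, r of this pair ran from 0.39 (PFC) to 0.82 (VTA). In the VTA it was 0.547 without libraries FTL_365 and FTL_376. Irf7 was most like B2m (0.51), Gbp3 (0.48), an interferon-induced GTPase gene, and Ifit3 (0.46). H2-K1 and B2m were most like Lyz2, the gene of a lysozyme of myeloid cells (0.77 and 0.72), followed by the vitronectin gene Vtn (0.74) and Ifitm3 (0.73) for H2-K1 and by the microglial cathepsin gene Ctss (0.67) and Itm2b (0.67) for B2m. H2-D1 was most like Hspb8 (0.67), Vwa1 (0.63) and the meningeal gene Ptgds (0.63). Bst2 was most like Bmp6, Clic1 and Igf2 (0.59 each). Fxyd1 (0.75) and Cd63 (0.73) were among the genes most like Ifi27, and Isg15 was most like Vtn (0.51), Anxa3 (0.50) and Ifitm2 (0.50). After each other, Ifit1 was most like Eci2 and Ctsh (0.57 each) and Ifit3 most like Itm2a (0.55), an endothelial marker, and Lxn (0.54).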

How the data were processed

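RNA was extracted from brain punches and sequenced as poly(A)-enriched libraries. According to the submitters' processing notes, cutadapt 2.9, STAR 2.7.3a, RSEM 1.3.1 and the mm10 genome were used. The authors deposited RSEM expected counts per gene symbol for 119 libraries in 2 tables, PFC and DMS in one and NAc, Amy and VTA in the other. Of the values, 4.75% and 5% were not whole, and all were rounded. RSEM divides reads that match several genes, which makes values of near-identical genes uncertain. Columns that were not used numbered 0.

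Groups follow the labels. Counts were tested with edgeR 4.0.16 (quasi-likelihood, robust, filterByExpr, TMM) in R 4.3.3, with DESeq2 1.42.0 as an alternative, and Benjamini-Hochberg adjustment over all genes tested. A gene passed at FDR below 0.05 with a log2 fold change of 0.4 or more in either direction, as in the study. THC was tested within each region and sex. Regions were tested only within a table. P-values within a region measure the spread between libraries of separate mice. Region tests could not be blocked by mouse, although regions share mice. The scripts were tested on simulated counts. CPM used TMM-scaled totals over all 119 libraries, and counts set the precision of low genes. Gene positions and exon lengths are from GENCODE M21, promoters from RefSeq (GRCm38.p6). The list genes fixed as Tmem173 and Mb21d1 are filed as Sting1 and Cgas and were read under those symbols.

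The members and lists were chosen with earlier results of these data known. Named beside the 9 members were list genes that passed in a THC comparison, the 3 interferon or MHC list genes with the smallest p in the male NAc, female Amy and female VTA, Mid1, and the 3 genes most correlated with each member, of which 1 is not reported here. Leaving out libraries FTL_347 and FTL_371, library FTL_338, or libraries FTL_365 and FTL_376, DESeq2 without library FTL_344, and the Amy fits and correlations over both sexes without libraries FTL_344 and FTL_356, were chosen after seeing the data.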

Additional observations from a re-analysis of the deposited data

Results flagged for a closer look

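Of 180 sets of 5 or 6 libraries (9 genes in 20 groups), 20 held a library at one end whose gap to the next, relative to the range of the group, was above Dixon's critical value. Chance alone flags about 1 in 20 sets, and the genes of a library are not independent.

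Female VTA THC library FTL_365 was the highest of its group for Ifit1 (12.1 CPM, others 1.96 to 3.47), Ifit3 (27.8, others 9.44 to 10.8), Isg15 (4.91, others 0.426 to 1.23), Irf7 (5.56, others 1.62 to 2.77) and Bst2 (5.27, others 1.76 to 2.72). Male VTA THC library FTL_376 was the highest for Ifit1 (6.22 CPM, others 1.96 to 2.92) and Isg15 (2.97, others 0.819 to 1.09), and female VTA vehicle library FTL_362 for Ifit1 (7.02, others 2.42 to 4.06). Male NAc THC library FTL_327 was the highest for Ifit1 (3.21 CPM, others 0.519 to 1.33) and Ifit3 (13.1, others 4.82 to 7.5).

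In the Amy, female vehicle library FTL_338 was the highest for Bst2 (2.27 CPM, others 0.606 to 1.12), female THC library FTL_343 for Bst2 (2.51, others 0.785 to 1.32) and female THC library FTL_342 for Irf7 (1.48, others 0.951 to 1.02), while male vehicle library FTL_347 was the lowest for Ifit1 (0.102, others 1.04 to 1.31). In the DMS, female vehicle library FTL_290 was the highest for Ifit1 (2.28 CPM, others 1.43 to 1.65), and female THC library FTL_296 (4.27, others 6.86 to 8.34) and male vehicle library FTL_299 (5.16, others 7.26 to 8.41) were the lowest for Ifit3. In the PFC, female THC library FTL_267 was the lowest for Ifi27 (15.9 CPM, others 19.2 to 21.2), and female THC library FTL_272 (34.7, others 29.8 to 31.5) and male vehicle library FTL_276 (37.4, others 31.4 to 33.6) were the highest for H2-D1.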

How the results depend on the processing

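No paired analysis was possible because groups share no library numbers and the labels give no mouse. The number of members that passed for THC stayed at 0 in the settings run except in the female Amy, at 2 with DESeq2 (3.39% of the genes with an adjusted p), 1 with DESeq2 without library FTL_344 (2.67%) and 0 to 1 when each library was left out (1 without FTL_337, beside 1.21% of all genes, and 1 without FTL_343, beside 1.67%), and in the female VTA, at 0 to 1 when each was left out (1 without library FTL_365, beside 0.0948%). The causes were not tested. DESeq2 gave no adjusted p for all 9 members in the male NAc, for 4 in the female DMS and for 2 in the female VTA. Those members could not pass in that setting, so its counts there do not test them. The counts between regions, for THC over both sexes, between sexes and for the interaction moved by less than 1.5 times. Depth limits Ifit1, Isg15, Irf7 and Bst2 most.

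Among single members, the THC log2 fold change in the male Amy changed sign for H2-D1 (0.00169 with DESeq2, 0.000525 with its size factors in edgeR, 0.0174 without libraries FTL_344 and FTL_356) and Ifit3 (0.00417 without these). The interaction of Bst2 in the PFC changed sign with DESeq2 (0.00278) and its size factors (0.002). Amy against NAc changed sign for Irf7 (−0.118), Bst2 (0.0262) and H2-K1 (−0.00931) with all libraries and for Ifit1 (0.0391) without libraries FTL_347 and FTL_371. All of these were near 0.

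Leaving out each library gave log2 fold changes on either side of 0 in the male NAc for Ifit1 (−0.00464 to 0.656), Ifit3 (−0.235 to 0.0832) and Isg15 (−0.000617 to 0.398). In the female Amy this held for Irf7 (−0.101 to 0.181), Ifi27 (−0.356 to 0.0764) and Bst2 (−0.086 to 0.598). In the female VTA it held for Ifit1 (−0.447 to 0.466), Isg15 (−0.747 to 0.251), Ifi27 (−0.14 to 0.0622), H2-D1 (−0.104 to 0.0327) and H2-K1 (−0.202 to 0.00338). In the male VTA it held for Ifit3 (−0.195 to 0.0645), Isg15 (−0.16 to 0.49), Irf7 (−0.0849 to 0.177), Bst2 (−0.117 to 0.398), B2m (−0.005 to 0.233), H2-D1 (−0.0307 to 0.11) and H2-K1 (−0.162 to 0.0436).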
